A study of Mus musculus with 18 samples.

Results

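The genes described are 8 whose products build or regulate contractile filaments. Those of smooth muscle are the actins Acta2 and Actg2, the tropomyosins Tpm1 and Tpm2, the actin-binding proteins Cnn1 and Tagln and the myosin light chain Myl9, and Mybpc3 is a sarcomere protein of heart muscle. They were picked by symbol from the 24116 genes of a table of RNA-seq read counts from mouse embryonic stem (ES) cells of the 129S6/SvEvTac strain, and all 8 were present. The study compared wild-type cells (n = 8 libraries), cells with a knockout of Snf2h (ko, n = 5), ko cells given back wild-type Snf2h (wild-type add-back, n = 3) and ko cells given back mutant Snf2h, which the growth protocol calls an ATPase mutant (mutant add-back, n = 2, replicates 1 and 3). The gene Smarca5 encodes Snf2h, the motor of the ISWI chromatin remodellers, which move and space nucleosomes. Every add-back line carries the ko. All cells were kept as undifferentiated ES cells in serum with leukemia inhibitory factor. Growth was on gelatin, except that the ko and mutant add-back lines spent at least their first passages after thawing on mouse embryonic fibroblast feeders. The labels name neither the number of clones behind a line nor the promoter driving the returned Snf2h, and separate cultures are not identified, so p-values measure the spread between these libraries, part of which may be technical.

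In smooth muscle, thin filaments of alpha and gamma smooth muscle actin (Acta2 and Actg2) slide along myosin, whose regulatory light chain (Myl9) is phosphorylated to start contraction. Tropomyosins (Tpm1, Tpm2) lie along the actin filament, while calponin (Cnn1) and transgelin (Tagln, also called SM22-alpha) bind actin and mark the contractile state of the muscle cell. Many of these genes are driven by serum response factor (SRF), which binds CArG boxes in their promoters together with cofactors of the myocardin family. Mybpc3 differs from the others, as it encodes the cardiac form of myosin-binding protein C and belongs to striated heart muscle. ES cells do not contract, and several of these genes are also expressed by fibroblasts and by other cells rich in actin stress fibres.

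RefSeq promoter windows on GRCm38.p6, which run from 250 bases before an annotated transcript start to 50 bases after it, were found for 6 of the 8 genes, all but Tagln and Actg2. They were searched for the CArG box, here a run of 6 A or T bases between CC and GG, with up to 1 of these 6 positions allowed to be G or C. The motif reads the same on both strands. A match was present in the windows of Acta2 and Myl9 and in 9.98% of all 32851 windows. The strict form without G or C was present in Myl9 and in 1.63% of windows. The stretches below are shown because Acta2 and Myl9 carry the same kind of site and moved in opposite directions in ko. Capitals mark the matches, and sequences read 5′ to 3′ on the gene's strand.
Acta2, chr19:34255438-34255467, minus strand, match 84 to 75 bases before the start: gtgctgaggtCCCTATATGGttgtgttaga
Acta2, chr19:34255388-34255417, minus strand, match 34 to 25 bases before the start: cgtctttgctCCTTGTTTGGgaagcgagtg
Myl9, chr2:156775214-156775407, plus strand, matches 161 to 152 and 99 to 90 bases before the start: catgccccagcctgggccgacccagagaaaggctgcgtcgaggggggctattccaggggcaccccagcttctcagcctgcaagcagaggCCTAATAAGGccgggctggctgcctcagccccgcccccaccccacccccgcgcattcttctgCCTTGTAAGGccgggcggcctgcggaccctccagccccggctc
The Acta2 sites lie 5′ of the transcript start used for the window, but inside the gene's RefSeq span and in an exon of a longer transcript in GENCODE vM21, so only 30 bases around each are given. The Myl9 stretch lies outside annotated exons. The windows of Cnn1, Tpm1, Tpm2 and Mybpc3 held no such match.

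The Mybpc3 window is shown for the gene that changed most of the 8 in ko. It held a site of the form bound by the muscle factor MEF2 (CTA, then 4 A or T bases, then TAG, the same on both strands), a motif searched only after the sequence had been seen and present in 0.557% of all windows. The match lies 90 to 81 bases before the start.
Mybpc3, chr2:91117894-91118113, plus strand: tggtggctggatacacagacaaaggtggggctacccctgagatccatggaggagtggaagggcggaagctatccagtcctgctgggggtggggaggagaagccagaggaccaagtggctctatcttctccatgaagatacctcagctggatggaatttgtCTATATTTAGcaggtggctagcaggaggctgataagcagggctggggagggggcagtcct
A match describes letters in this window and is no evidence that a factor binds there.

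Library totals ran from 15.3 to 37.0 M counts and fell into 3 sets that the labels do not name. The middle set (20 to 28 M counts) holds wild type replicates 1 and 2 and ko replicates 1 and 2, the high set (above 28 M) wild type replicates 3, 4 and 5, and the low set (below 20 M) all other libraries, including both add-backs. Within the low and middle sets, pairs of wild-type or of ko replicates gave a chi-square per gene of 1.46 to 2.53, where 1 is counting noise alone, the wild-type add-back pairs 2.04 to 6.41 and the 2 mutant add-back libraries 13.4. The wild-type pairs of the high set gave 15.9 (replicates 4 and 5), 32.2 (3 and 5) and 40.9 (3 and 4). Wild type replicates 1 and 3, of different sets, gave 39.8, so the high set shares a range of depth but is not uniform. What separates the sets is not given in the labels, so results are stated over all libraries and within sets. The targeted Smarca5 averaged 185 ± 29.1 CPM (counts per M; SD, n = 8) in wild type, 9.36 ± 0.590 (n = 5) in ko, 86.0 ± 3.63 (n = 3) in the wild-type add-back and 58.5 ± 14.3 (n = 2) in the mutant add-back. The 8 ES cell markers summed to between 4621 and 6684 CPM in every library, and the 2 middle-set ko libraries were the lowest (4621 and 4663 CPM). A total of 14901 genes passed the filter on low counts. Of the 8 contractile genes, 7 passed in all 18 libraries, and Actg2 passed only through the 2 mutant add-back libraries.

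**Figure D1:**
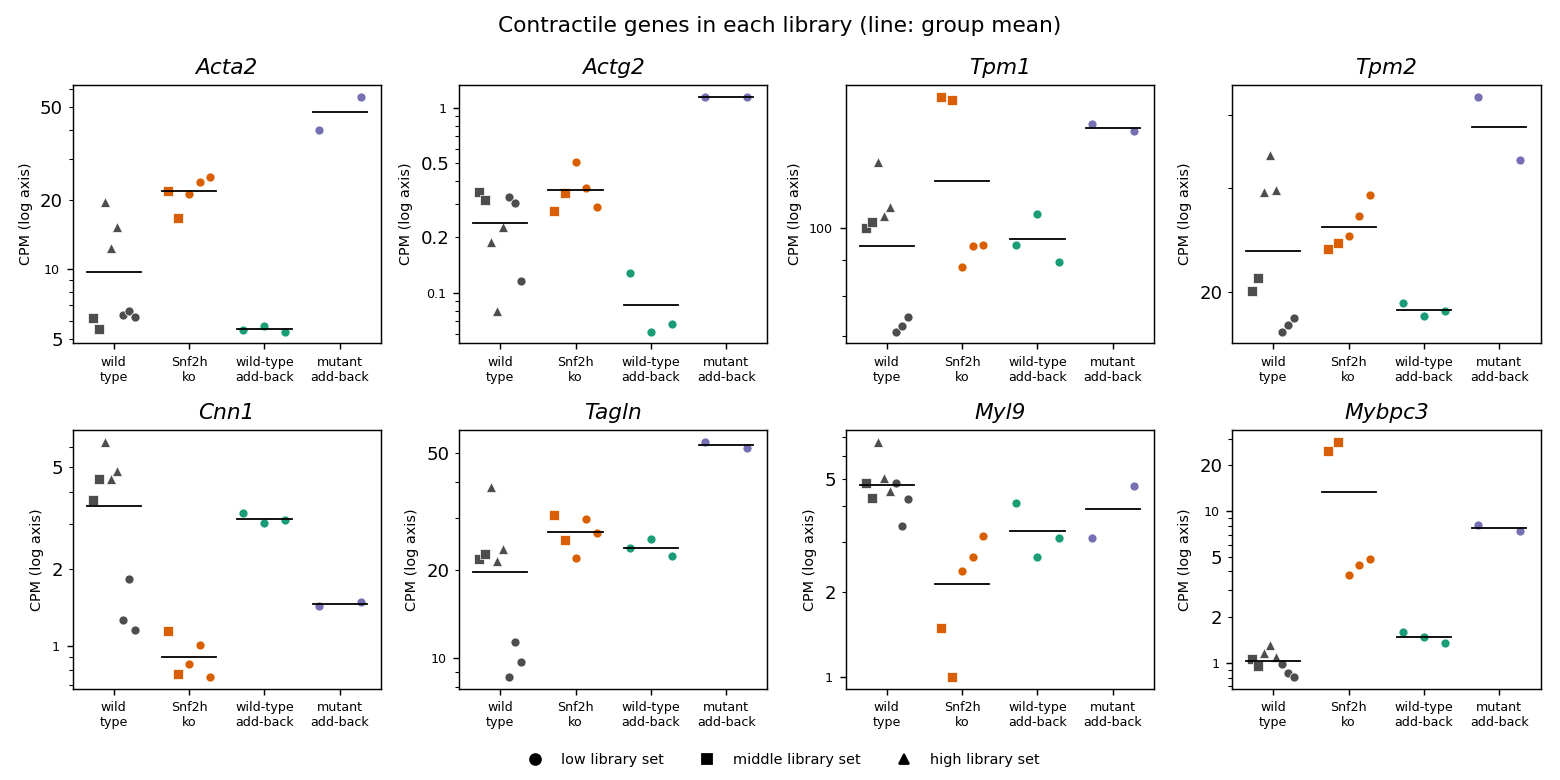
CPM of each contractile gene on a log axis, 1 point per library, shaped by library set, with a line at the mean of each group. Mybpc3 is higher and Cnn1 and Myl9 are lower in every ko library than in every wild-type library, and Acta2 is highest in the 2 mutant add-back libraries (39.9 and 55.5 CPM).

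Compared per length of the gene (RPKM, counts per kb of exon and M counts), wild-type cells held most RNA for Tpm1 (24.05 ± 4.96, SD, n = 8), followed by Tagln (12.4 ± 6.15), Tpm2 (7.05 ± 2.01), Myl9 (4.36 ± 0.877), Acta2 (3.79 ± 2.06) and Cnn1 (1.69 ± 0.909). Mybpc3 (0.247 ± 0.039) and Actg2 (0.168 ± 0.073) were the lowest. In ko, Acta2 (8.44 ± 1.24 RPKM, n = 5) stood above Tpm2 (7.76 ± 0.689), and Mybpc3 (3.19 ± 2.96) above Myl9 (1.97 ± 0.801) and Cnn1 (0.436 ± 0.080). The order of Mybpc3 and Myl9 differed between ko libraries of different depth. Mybpc3 was at 6.41 and Myl9 at 1.15 RPKM in the middle-set ko libraries (n = 2). In the low-set ko libraries (n = 3) they were at 1.04 and 2.51 RPKM, so Myl9 stood higher there. In the mutant add-back, Tagln (33.7 ± 1.17 RPKM, n = 2) came close to Tpm1 (35.5 ± 0.596), with Acta2 next at 18.6 ± 4.29.

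Acta2, the alpha smooth muscle actin on chromosome 19 (34240336 to 34255585), was higher in ko than in wild type and highest in the mutant add-back. The ko libraries held 21.8, 16.7, 21.2, 23.7 and 25.1 CPM, whereas wild type ranged from 5.52 to 19.5 CPM around a median of 6.49. The wild-type add-back held 5.49, 5.72 and 5.39 CPM and the mutant add-back 39.9 and 55.5 CPM. The ko and wild-type ranges met only through wild type replicate 3 (19.5 CPM), which belongs to the high set together with the next highest wild-type libraries at 15.2 and 12.4 CPM. Ko exceeded wild type 2.19-fold (log2 fold change 1.13 ± 0.26 SE, adjusted p = 0.00141). Within the middle set the log2 fold change was 1.72 ± 0.19, and within the low set 1.86 ± 0.16, and the 2 did not differ detectably (difference -0.14 ± 0.26, adjusted p = 0.725).

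Actg2, the enteric gamma smooth muscle actin on chromosome 6 (83512909 to 83536251), was barely detected outside the mutant add-back. Both mutant add-back libraries held 20 counts (1.15 and 1.14 CPM), while the other groups held 2 to 8 counts per library in wild type, 5 to 9 in ko and 1 or 2 in the wild-type add-back. The mutant add-back libraries thus stood above all others. As Actg2 passed the filter only through them, it had to be high there, and it is left out of the counts of genes that differ from the mutant add-back. With no filter on low counts, edgeR put the mutant add-back 2.28 ± 0.38 (log2) above wild type (adjusted p = 7.48e-05) and 1.66 ± 0.40 above ko (adjusted p = 0.108), and gave -3.64 ± 0.59 between the add-backs, wild-type minus mutant (adjusted p = 8.60e-05). Ko against wild type gave 0.61 ± 0.32 and was not called (adjusted p = 0.113), and within the middle set the value was -0.10 ± 0.47. The muscle actins are closely related genes, and how reads that match several genes were counted is not given. The split of such reads between Acta2, Actg2 and the striated actins is therefore uncertain.

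Cnn1, calponin on chromosome 9 (22099221 to 22109221), fell in ko. The ko libraries held 1.14, 0.773, 0.847, 1.01 and 0.755 CPM, against 1.16 to 6.29 CPM with a median of 4.11 in wild type. All ko libraries were below all wild-type libraries, but the 3 wild-type libraries of the low set (1.26, 1.83 and 1.16 CPM) came close to ko. The wild-type add-back returned to 3.32, 3.01 and 3.10 CPM, and the mutant add-back held 1.44 and 1.48 CPM. Ko was 3.92-fold lower than wild type (-1.97 ± 0.37, adjusted p = 0.000191). The fall was -2.10 ± 0.25 in the middle set and -0.69 ± 0.27 (adjusted p = 0.0324) in the low set, and these differed by -1.41 ± 0.37 (adjusted p = 0.00753, or 0.0535 without ko replicate 2).

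Tagln, transgelin on chromosome 9 (45929628 to 45936058), did not pass the test between ko and wild type over all libraries (0.44 ± 0.26, adjusted p = 0.161). Ko held 30.7, 25.2, 22.0, 29.8 and 26.7 CPM. Wild type split by set, with 21.8 and 22.7 CPM in the middle, 38.3, 21.4 and 23.5 CPM in the high and 8.64, 11.3 and 9.72 CPM in the low set. The ko libraries therefore overlapped the wild-type libraries of the middle and high sets and lay above those of the low set. In the low set Tagln rose by 1.41 ± 0.19 (adjusted p = 8.58e-06), within the middle set the value was 0.33 ± 0.21 (adjusted p = 0.177), and the difference of -1.08 ± 0.29 passed the test (adjusted p = 0.00971). Without wild type replicate 3, the highest library, the comparison over all libraries was called as well (0.65 ± 0.22, adjusted p = 0.0196).

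Neither tropomyosin passed the test between ko and wild type over all libraries. Tpm1 on chromosome 9 (67022590 to 67049672) held 154, 152, 87.8, 94.1 and 94.6 CPM in ko, 71.1 to 124 CPM with a median of 101 in wild type, 89.5 to 105 CPM in the wild-type add-back and 141 and 137 CPM in the mutant add-back. The 2 ko libraries of the middle set stood above the mutant add-back, and the other 3 lay inside the wild-type range. Over all libraries ko gave 0.30 ± 0.16 (adjusted p = 0.105, and 0.0469 without ko replicate 3), while Tpm1 rose within both the middle set (0.60 ± 0.08) and the low set (0.34 ± 0.07). Tpm2 on chromosome 4 (43513726 to 43523583) held 23.7 to 29.3 CPM in ko and 17.2 to 34.2 CPM in wild type (0.13 ± 0.16, adjusted p = 0.497). Its 3 high-set wild-type libraries, at 29.6, 34.2 and 29.8 CPM, were above every ko library, and the other 5 wild-type libraries were below every ko library. Tpm2 rose within the low set by 0.62 ± 0.09, and gave within the middle set 0.22 ± 0.11 (adjusted p = 0.0873).

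Myl9, the regulatory light chain on chromosome 2 (156775408 to 156781657), fell in ko. The ko libraries held 1.496, 1.00, 2.37, 2.65 and 3.14 CPM, and wild type ranged from 3.42 to 6.73 CPM with a median of 4.66. No ko library reached the lowest wild-type library. The wild-type add-back held 4.09, 2.64 and 3.10 CPM, the mutant add-back 3.10 and 4.72 CPM, and these 2 groups overlapped each other and ko. Ko was 2.26-fold lower than wild type (-1.18 ± 0.24, adjusted p = 0.000357), by -1.86 ± 0.28 in the middle and -0.62 ± 0.22 (adjusted p = 0.0212) in the low set. These falls differed by -1.25 ± 0.36 (adjusted p = 0.0131), a call lost without ko replicate 2 (adjusted p = 0.1004) or wild type replicate 1 (0.0505).

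Mybpc3, the cardiac myosin-binding protein on chromosome 2 (91118114 to 91136516), rose most of the 8 genes in ko. It was low and even across wild type, at 0.810 to 1.30 CPM with a median of 1.02. The 2 ko libraries of the middle set held 24.9 and 28.5 CPM, and the 3 of the low set 3.78, 4.39 and 4.82 CPM. Every ko library stood above every wild-type library, and the ko libraries themselves fell into 2 levels that followed the library sets. The wild-type add-back held 1.60, 1.48 and 1.35 CPM and the mutant add-back 8.10 and 7.34 CPM. Ko exceeded wild type 12.8-fold (3.68 ± 0.42, adjusted p = 9.37e-07), 26.5-fold in the middle set (4.73 ± 0.17) and 4.87-fold in the low set (2.28 ± 0.18), a difference of 2.45 ± 0.28 (adjusted p = 9.71e-07).

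Over all libraries, 4 of the 8 genes passed the test between ko and wild type at an adjusted p under 0.05 (edgeR), with Acta2 and Mybpc3 higher and Cnn1 and Myl9 lower. Of all 14901 genes tested, 55.0% passed, so the share among the contractile genes was close to that of genes in general. For 3 of them, Mybpc3, Cnn1 and Myl9, the groups did not overlap, as was the case for 29.5% of all genes. The median log2 fold change of the 8 genes was 0.37, beside -0.01 for all genes. Within the middle set 5 were called (all genes: 61.8%), and within the low set 7 (all genes: 60.1%), where Actg2 alone was not called. The count over all libraries also rose to 7 (all genes: 56.5%) when the 3 high-set wild-type libraries were left out, a choice made after seeing the data; Tagln (0.84 ± 0.23, adjusted p = 0.00596), Tpm1 (0.47 ± 0.17, adjusted p = 0.0250) and Tpm2 (0.45 ± 0.09, adjusted p = 0.000529) were the additions. The directions of the 7 genes other than Actg2 were the same in both sets.

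**Figure D2:**
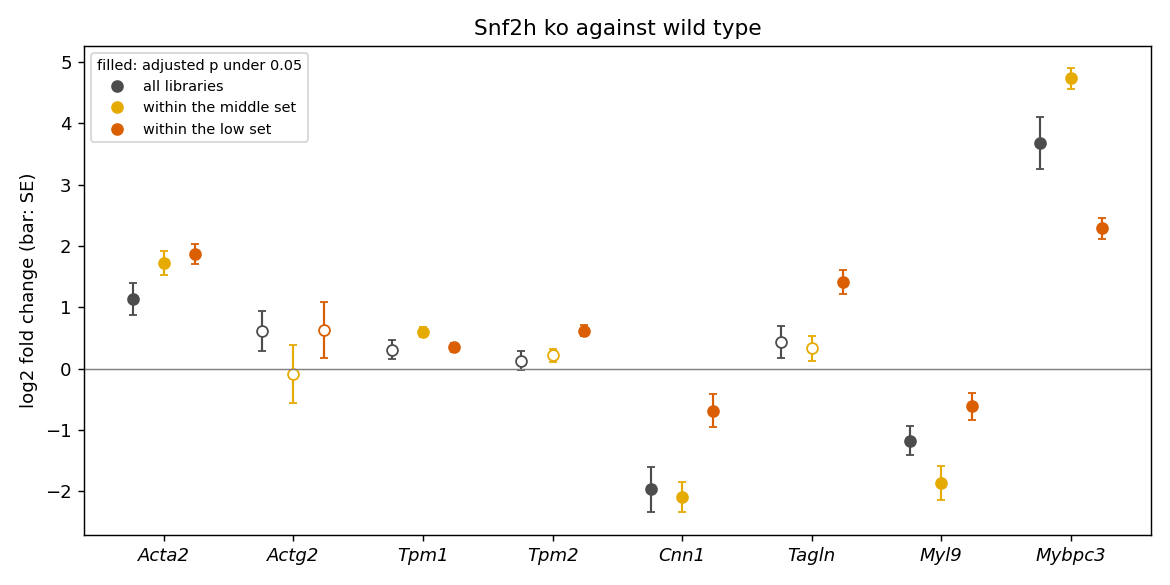
Log2 fold change of ko against wild type for each gene, with SE bars, over all libraries and within the middle and low sets; filled points passed an adjusted p under 0.05. Mybpc3 and Acta2 lie above 0 and Cnn1 and Myl9 below 0 in all 3, and Mybpc3 differs most between the sets (4.73 against 2.28).

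Several of the genes differed between library sets among libraries of the same genotype label. Between the wild-type libraries of the middle and low sets, 3 genes were called (all genes: 43.5% in either direction and 21.6% higher), with Cnn1 (1.54 ± 0.22), Tagln (1.17 ± 0.21) and Tpm1 (0.47 ± 0.08) higher in the middle set. Between the ko libraries of these sets, 3 were called (all genes: 43.8%): Mybpc3 (2.62 ± 0.12) and Tpm1 (0.73 ± 0.07) were higher and Myl9 (-1.12 ± 0.28, adjusted p = 0.00308, or 0.0640 without ko replicate 2) lower in the middle set. The size of the ko effect differed between the sets for 5 genes (all genes: 26.8%): Mybpc3, Cnn1, Tagln, Myl9 and Tpm2. The call for Tpm2 (-0.40 ± 0.14, adjusted p = 0.0420) was lost on leaving out any 1 library of the 2 sets other than ko replicate 3, and under DESeq2.

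With wild-type Snf2h returned, 4 of the 8 genes differed from their ko level (all genes: 45.0%). Lower than in ko were Acta2 (-1.97 ± 0.39, adjusted p = 0.000479), Actg2 (-1.98 ± 0.57, adjusted p = 0.00820) and Mybpc3 (-3.18 ± 0.62, adjusted p = 0.000462), and Cnn1 was higher (1.78 ± 0.45, adjusted p = 0.00329). The value for Actg2 rests on 4 counts in all 3 add-back libraries together. Tagln (-0.18 ± 0.34), Tpm1 (-0.28 ± 0.20), Tpm2 (-0.46 ± 0.21, adjusted p = 0.0730) and Myl9 (0.64 ± 0.30, adjusted p = 0.0862, and 0.0294 without ko replicate 5) were not called. All 3 add-back libraries lay outside the ko range for 5 genes, the 4 called and Tpm2 (all genes: 55.3%). Because the add-backs belong to the low set, the same comparison was made against the low-set ko libraries alone. It kept the 4 directions, with Mybpc3 at -1.55 ± 0.16, added Tpm2 (-0.53 ± 0.09), and left Tagln (-0.14 ± 0.18), Tpm1 (0.06 ± 0.07) and Myl9 (0.27 ± 0.23) uncalled (5 called; all genes: 58.6%).

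Set against the wild-type libraries, this add-back had 0 of the 8 genes called over all libraries by edgeR, and 0 by DESeq2. Acta2 (-0.84 ± 0.36) and Actg2 (-1.37 ± 0.57) had an unadjusted p under 0.05 in edgeR, and the share of all genes with such a p is not given. Few genes of any kind were called (1.60%). Only Mybpc3 lay outside the wild-type range in all 3 libraries (all genes: 8.06%). Among low-set libraries 4 genes were above wild type (all genes: 22.5% in either direction and 10.7% higher): Tagln (1.27 ± 0.20), Cnn1 (1.16 ± 0.22), Mybpc3 (0.73 ± 0.22, adjusted p = 0.0336) and Tpm1 (0.41 ± 0.07). Acta2 gave -0.21 ± 0.20 there. Tagln, at 23.8 ± 1.58 CPM in the add-back, lay within the range of ko and of wild type outside the low set, and above the wild-type libraries of the low set.

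With mutant Snf2h returned, 0 of the 8 genes were called against ko over all libraries by edgeR (all genes: 0.322%), and 0 by DESeq2. Of the 7 genes other than Actg2, Acta2, Tagln, Tpm2 and Myl9 had an unadjusted p under 0.05, all higher in the mutant add-back. The share of all genes with such a p is not given, so this is no result about these genes as a set. For 4 of the 7 both mutant add-back libraries lay above every ko library (all genes: 27.9%): Acta2 (1.14 ± 0.37, adjusted p = 0.176), Tagln (0.99 ± 0.37), Tpm2 (0.57 ± 0.22) and Cnn1 (0.68 ± 0.54). Against the low-set ko libraries 5 of the 7 were higher (all genes: 14.6% in either direction and 6.83% higher), namely Acta2 (1.03 ± 0.15), Tagln (1.03 ± 0.19), Mybpc3 (0.83 ± 0.14), Tpm1 (0.59 ± 0.08) and Tpm2 (0.50 ± 0.10). Mybpc3 changed sign between these fits, from -0.80 ± 0.60 over all ko libraries, since its level in the middle-set ko libraries exceeded that of the mutant add-back. Cnn1 (0.74 ± 0.29, adjusted p = 0.0957) and Myl9 (0.53 ± 0.25, adjusted p = 0.155) were not called within the low set.

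From wild type, the mutant add-back differed in 6 of the 7 genes other than Actg2 (all genes: 45.5%). Higher were Mybpc3 (2.88 ± 0.53), Acta2 (2.27 ± 0.33), Tagln (1.43 ± 0.33), Tpm2 (0.70 ± 0.21) and Tpm1 (0.56 ± 0.21, adjusted p = 0.0365), and Cnn1 was lower (-1.29 ± 0.51, adjusted p = 0.0465). Acta2, Mybpc3, Tagln and Tpm1 did not overlap between the groups, 4 of the 7 (all genes: 47.1%). The call for Cnn1 was lost on leaving out any 1 of wild type replicates 1 to 5 or either mutant library, and that for Tpm1 on leaving out any 1 of wild type replicates 6, 7 and 8 or either mutant library. Without mutant add-back replicate 1 the call for Tpm2 was lost too (0.50 ± 0.28, adjusted p = 0.202). Low-set libraries alone gave 5 higher genes of the 7 (all genes: 60.3% in either direction and 30.2% higher), with Tagln at 2.43 ± 0.20 and Acta2 at 2.90 ± 0.17, while Cnn1 gave 0.05 ± 0.27.

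The 2 add-backs, which share library set, differed in 4 of the 7 genes other than Actg2 over all libraries (all genes: 37.0% in either direction and 18.4% lower), each lower with wild-type Snf2h: Acta2 (-3.11 ± 0.45), Mybpc3 (-2.38 ± 0.70, adjusted p = 0.0122), Tagln (-1.16 ± 0.41, adjusted p = 0.0342) and Tpm2 (-1.03 ± 0.25). The libraries did not overlap for 6 of the 7, all but Myl9 (all genes: 72.5%). Acta2 RNA was thus 8.61-fold lower in the wild-type than in the mutant add-back. The call for Tagln was lost on leaving out any 1 of the 5 libraries, and those for Tpm2 (-0.83 ± 0.30, adjusted p = 0.0647) and Mybpc3 (-2.30 ± 0.85, adjusted p = 0.0649) without mutant add-back replicate 1. Cnn1 gave 1.11 ± 0.57 over all libraries (adjusted p = 0.138). With the spread estimated within sets, 6 of the 7 were called (all genes: 60.6%), Cnn1 and Tpm1 (-0.53 ± 0.08) among them.

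**Figure D3:**
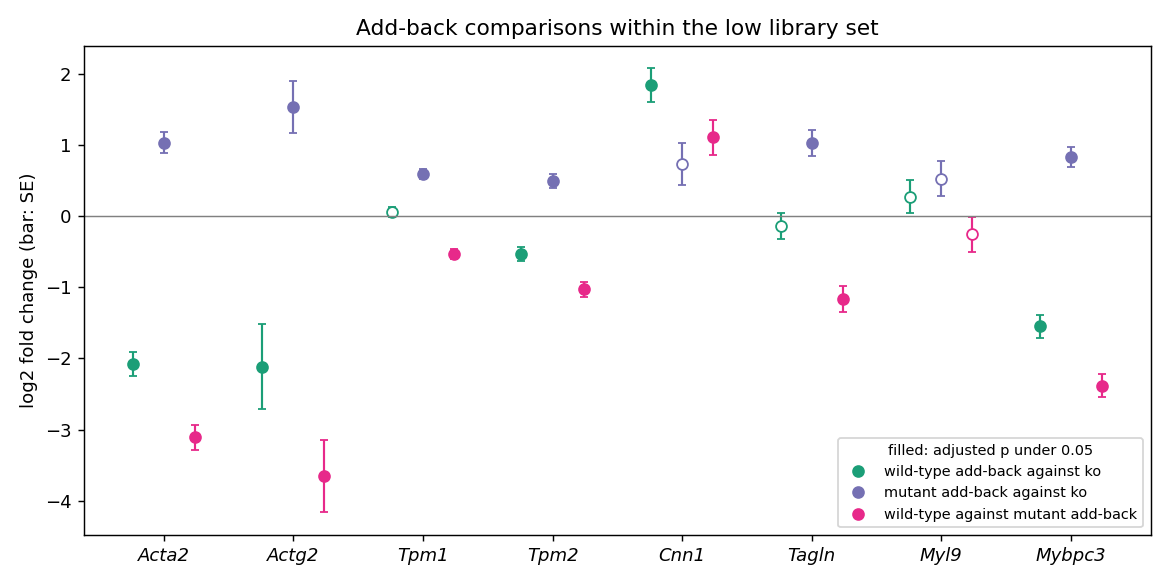
Log2 fold changes within the low library set, with SE bars, for each add-back against ko and between both add-backs (wild-type minus mutant); filled points passed an adjusted p under 0.05. Acta2, Actg2 and Mybpc3 are below 0 for the wild-type and above 0 for the mutant add-back, and Cnn1 is above 0 for the wild-type add-back (1.84); Actg2 entered the tests only through the mutant add-back libraries.

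Ordered by mean CPM, Acta2 ran from the mutant add-back (47.7 ± 11.04, n = 2) through ko (21.7 ± 3.20, n = 5) and wild type (9.76 ± 5.29, n = 8) to the wild-type add-back (5.53 ± 0.168, n = 3). Of the neighbours in this order, only ko and wild type differed over all libraries. For Mybpc3 the order was ko (13.3 ± 12.3), mutant add-back (7.72 ± 0.536), wild-type add-back (1.47 ± 0.124) and wild type (1.03 ± 0.162), and only the 2 add-backs, the middle neighbours, differed. For Cnn1 it was wild type (3.51 ± 1.89), wild-type add-back (3.14 ± 0.158), mutant add-back (1.46 ± 0.031) and ko (0.904 ± 0.165), and no neighbours differed over all libraries. These means pool wild type and ko over the sets, and among low-set libraries the order changed for both. For Mybpc3 the mutant add-back then stood above ko (4.33 ± 0.522, n = 3), with wild type lowest at 0.882 ± 0.091 (n = 3), and all neighbours differed. For Cnn1 the wild-type add-back came first, and wild type (1.41 ± 0.363) lay just below the mutant add-back, from which its difference was not called, and above ko (0.869 ± 0.127).

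Markers of embryonic fibroblasts, the feeder cells, moved with the groups that had been on feeders. The 20 markers summed to 52.3 to 78.5 CPM in wild type and 44.1 to 46.8 CPM in the wild-type add-back, but to 158 to 177 CPM in ko and 134 to 156 CPM in the mutant add-back. Of the 16 tested, 13 were higher and 2 lower in ko than in wild type (all genes: 55.0% in either direction). Fbln2, a matrix fibulin, rose from 2.57 ± 0.424 CPM in wild type to 28.5 ± 2.15 in ko (3.46 ± 0.14), and the fibrillar collagen gene Col5a1 from 19.0 ± 2.90 to 42.8 ± 3.45 CPM (1.17 ± 0.10). The surface marker Thy1 was at 18.5 ± 5.33 and 24.3 ± 1.30 CPM (0.40 ± 0.17, adjusted p = 0.0511). Of the main fibroblast collagens, Col1a1 averaged 4.60 CPM in wild type and 15.8 CPM in ko, Col1a2 0.968 and 8.28 CPM, and Col3a1 0.124 and 1.10 CPM. Lum was at 0 in ko and in the mutant add-back, and Fap in both add-backs and Postn in the wild-type add-back were at 0 too. Over all libraries Acta2 and Mybpc3 were higher than in wild type, and Cnn1 lower, in both groups with the higher sum. Within the low set Cnn1 was called lower than wild type in ko (-0.69 ± 0.27) but not in the mutant add-back (0.05 ± 0.27). Acta2, Mybpc3, Tagln, Tpm1 and Tpm2 were called higher than wild type in both groups there. In the same set, Mybpc3, Tagln, Tpm1 and Cnn1 were also higher than wild type in the wild-type add-back, where the sum was low. Fibroblasts express Acta2, Tagln, Tpm1 and Tpm2 as well, and in bulk RNA more cells of a type and more RNA per cell cannot be told apart. The part of fibroblast RNA in these results was not tested. Feeder growth and loss of active Snf2h coincide in these groups and cannot be told apart.

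Markers of extraembryonic endoderm, a cell type that arises spontaneously in ES cultures, differed between the library sets, in opposite directions in ko and wild type. All 10 were called higher in middle-set than in low-set ko (all genes: 43.8% in either direction). The same 10 were called lower in middle-set than in low-set wild type (all genes: 43.5% in either direction). The 10 markers summed to 6748 and 7259 CPM in the 2 middle-set ko libraries, to 1786 to 1880 CPM in the low-set ko libraries, to 1268 and 1336 CPM in middle-set and 2984 to 3018 CPM in low-set wild type. Lama1, a laminin chain of this tissue's basement membrane, was at 3149 ± 178 CPM in the middle-set and 721 ± 20.5 CPM in the low-set ko libraries, and the collagen gene Col4a1 at 3078 ± 158 and 773 ± 13.8 CPM. Cubn, an endocytic receptor, was at 241 ± 14.3 and 115 ± 9.93 CPM. Of the 8 ES cell markers, 7 were called lower and 0 higher in middle-set than in low-set ko (all genes: 43.8% in either direction). Mybpc3 and Tpm1 were high in the same 2 middle-set ko libraries, and their relation to the endoderm and ES cell markers was not tested. Cardiac mesoderm markers stayed between 4.65 and 8.04 CPM in sum in every library, with the atrial light chain gene Myl7 at 3.34 ± 1.23 CPM in wild type and 3.21 ± 0.614 in ko, and their member Nppa was at 0 in wild type, ko and the wild-type add-back.

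**Figure D4:**
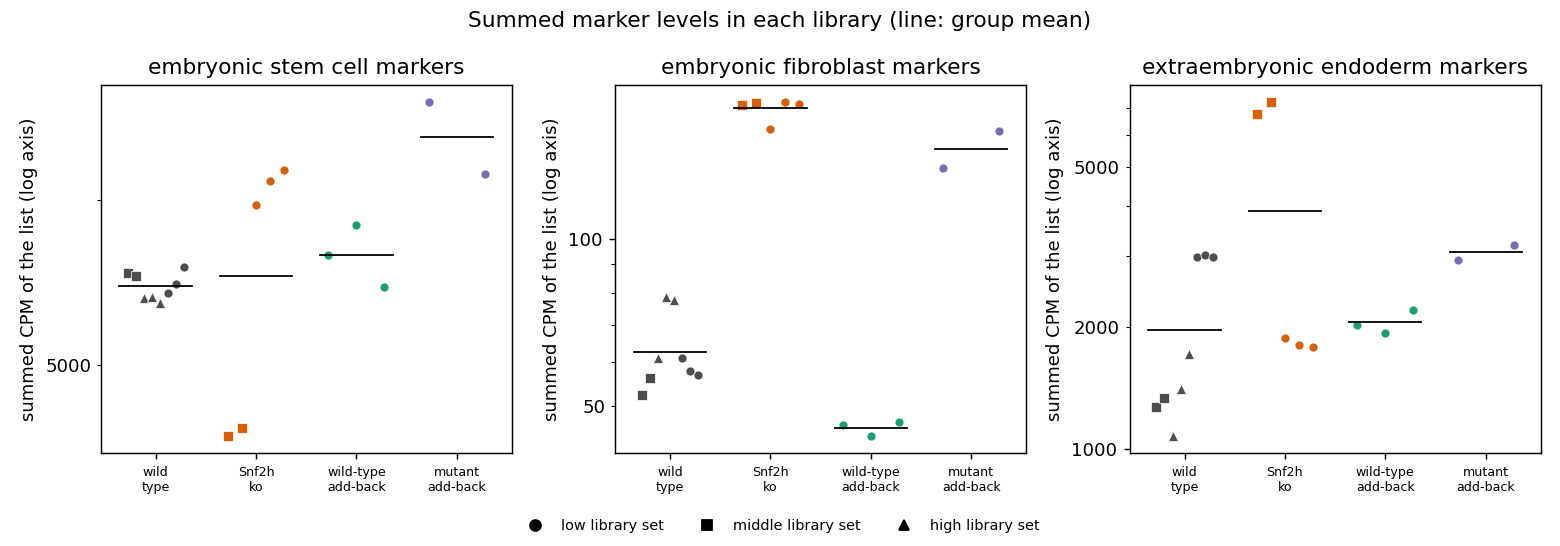
Summed CPM of ES cell, embryonic fibroblast and extraembryonic endoderm markers on log axes, 1 point per library shaped by library set, with a line at each group mean. Fibroblast markers separate ko and mutant add-back (134 to 177 CPM) from the other 2 groups (44.1 to 78.5 CPM), and endoderm markers are highest in the 2 middle-set ko libraries.

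Of 16 further genes of the smooth muscle contractile apparatus, 6 were higher and 2 lower in ko than in wild type. This share was close to that of all genes (55.0%), and the median log2 fold change was 0.23. Cald1, encoding the thin-filament protein caldesmon, rose from 81.3 ± 10.8 to 175 ± 8.61 CPM (1.11 ± 0.08), in the middle (1.31) and the low set (1.16). Csrp1, a LIM protein of smooth muscle, rose from 102 ± 15.3 to 157 ± 47.2 CPM (0.62 ± 0.14), and Tpm4, another tropomyosin, from 101 ± 11.001 to 161 ± 58.2 CPM (0.68 ± 0.15), although within the low set Tpm4 gave 0.14 ± 0.08 (adjusted p = 0.157). Pdlim7 was at 73.7 ± 14.5 and 74.7 ± 7.31 CPM. The wild-type add-back was lower than ko in 5 and higher in 2 of the 16 (all genes: 45.0% in either direction), with Cald1 at -1.06 ± 0.10 and back at 83.8 ± 1.68 CPM, and the mutant add-back held Cald1 at 215 ± 7.43 CPM (0.29 ± 0.11 against ko, adjusted p = 0.247).

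Of the striated sarcomere genes, to which Mybpc3 is related, 8 of the 18 tested were higher and 5 lower in ko (all genes: 55.0% in either direction), and the median was 0.34. Myl4, an atrial and embryonic myosin light chain, rose from 3.66 ± 0.792 to 24.3 ± 1.38 CPM (2.74 ± 0.13), by 2.93 ± 0.17 in the middle and 2.48 ± 0.14 in the low set. Ttn, encoding the giant sarcomere spring titin, fell from 10.4 ± 3.19 to 2.21 ± 0.669 CPM (-2.25 ± 0.27), and the skeletal actin Acta1 from 8.52 ± 1.05 to 6.36 ± 0.629 CPM (-0.42 ± 0.11). Tnnt1 was not called (0.06 ± 0.17). In the wild-type add-back Myl4 was at 3.84 ± 0.733 and Ttn at 13.2 ± 4.26 CPM, and in the mutant add-back at 32.4 ± 6.44 and 1.91 ± 0.917 CPM.

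In the non-muscle cytoskeleton, 3 of 16 genes were higher and 3 lower (all genes: 55.0% in either direction), with a median of -0.0033. Actb, the main cytoplasmic actin, fell from 1932 ± 266 to 1380 ± 52.4 CPM (-0.48 ± 0.08) and the actin-severing Cfl1 from 974 ± 152 to 759 ± 122 CPM (-0.36 ± 0.11), while Actg1 (-0.16 ± 0.07, adjusted p = 0.0546) and Actn4 (-0.19 ± 0.14) were not called.

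SRF and its cofactors, which act upstream of the smooth muscle genes, had 3 of 8 members higher and 2 lower (all genes: 55.0% in either direction), with a median of -0.05. Srf itself was at 63.7 ± 12.1 CPM in wild type and 54.5 ± 7.65 CPM in ko (-0.23 ± 0.12, adjusted p = 0.118), and its partner Elk1 gave -0.20 ± 0.11. The myocardin-related cofactors Mkl1 (-0.29 ± 0.11, adjusted p = 0.0366) and Mkl2 (-0.27 ± 0.10, adjusted p = 0.0329) were lower over all libraries. Within the middle and the low set Mkl1 was not called (-0.21 ± 0.11 and -0.02 ± 0.09), and Mkl2 was called in the middle (-0.26 ± 0.11, adjusted p = 0.0421) and not in the low set (-0.14 ± 0.09). Both calls over all libraries were lost with library size as the only scaling (adjusted p = 0.0957 and 0.114). That for Mkl1 was also lost on leaving out any 1 of wild type replicates 3, 4 and 5 or ko replicates 1, 2 and 4 (adjusted p up to 0.0913), and that for Mkl2 on leaving out any 1 of wild type replicates 1, 2, 3 and 5 or ko replicates 3, 4 and 5 (up to 0.106). Myocd, encoding myocardin, was at 0.452 ± 0.203 CPM in wild type. It was at 2.98 and 3.43 CPM in the middle-set ko libraries and at 0.441 ± 0.184 CPM in the low-set ones, so that its rise over all libraries (1.82 ± 0.50, adjusted p = 0.00478) was called within the middle set (2.66 ± 0.43) and not within the low set (0.07 ± 0.56).

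**Figure D5:**
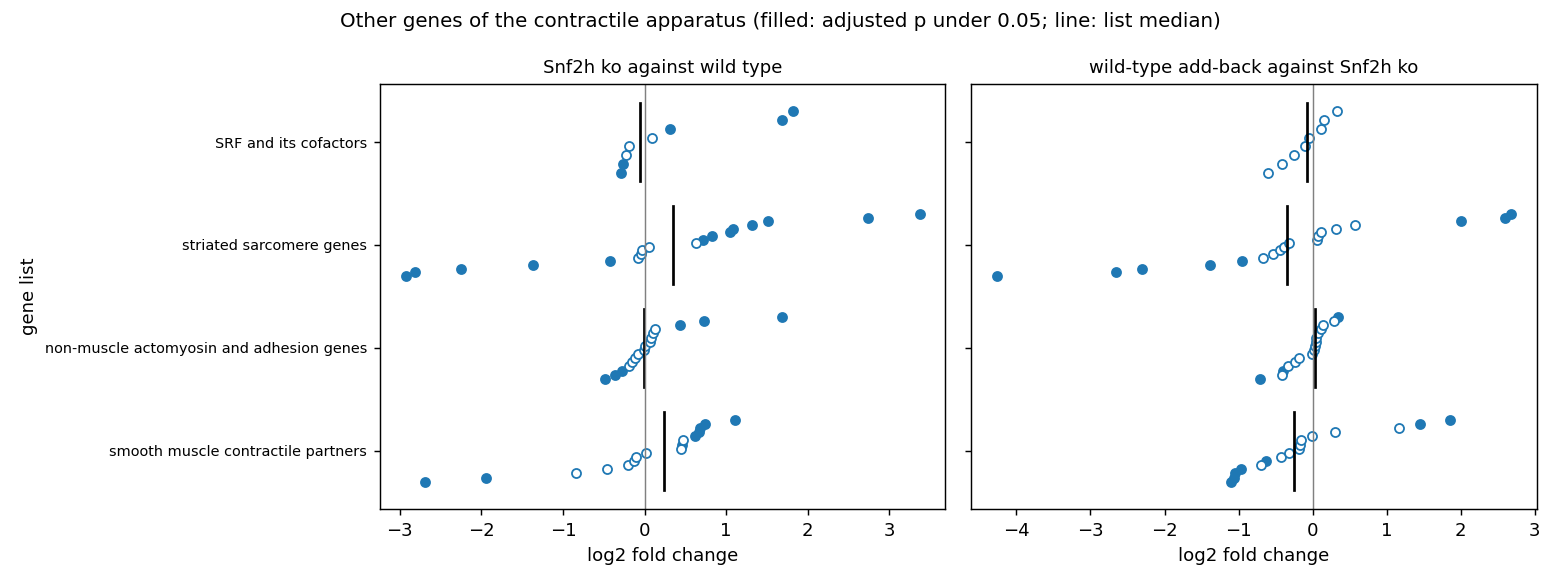
Log2 fold changes of the genes in 4 lists, 1 point per gene, in 2 panels, ko against wild type and the wild-type add-back against ko; filled points passed an adjusted p under 0.05 and the line marks the list's median. Each list holds genes on both sides of 0, and the medians of the smooth muscle and striated lists are above 0 in ko (0.23 and 0.34) and below 0 in the wild-type add-back (-0.25 and -0.35).

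Likeness between genes was measured as the root mean square difference of their log2 CPM values over the 18 libraries, each gene centred on its own mean. Among the 8 genes, Tpm1 and Tpm2 were the closest pair (0.31), and Cnn1 and Mybpc3 the farthest apart (2.27). Such a difference is also small between genes that each vary little, and the own spread of Tpm1 and Tpm2 is not given here. Over all tested genes, those most like Acta2, whose own values spread by 1.06, were Sorbs3 (0.42), Rtkn (0.44) and Nol3 (0.45). Tagln (own spread 0.68) was closest to Fxyd2 (0.36), Hspb8 (0.38) and Zmynd15 (0.39), and Myl9 (own spread 0.62) to Cand2 (0.33), Rpl39l (0.33) and Gpatch4 (0.34). Mybpc3 (own spread 1.55) was closest to Tmprss2 (0.47), Prl2c3 (0.54) and Cd44 (0.55). These are descriptions over libraries that share groups and sets.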

How the data were processed

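RNA of 18 libraries was analysed from the table of raw read counts per gene that the authors deposited, 1 column per library, with Entrez identifiers, symbols and exonic widths. Per the labels' protocols, libraries were stranded TruSeq mRNA. Per the submitters' processing notes, bcl2fastq 2.17 and STAR were used with mm10 (GRCm38). The counting tool, annotation, strand setting and treatment of reads matching several genes were not given in the sources used here.

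In edgeR 4.0.16 (R 4.3.3), filterByExpr with a count minimum of 10 kept 14901 genes. One fit over all libraries held 1 mean per group, with TMM scaling and the robust quasi-likelihood test (two-sided), Benjamini-Hochberg adjusted over all genes and called under 0.05. A second fit held 1 mean per group and library set, which gave the within-set values. The biological coefficient of variation was 0.169. TMM-scaled library sizes underlie CPM and RPKM, and the prior count for log2 CPM was 2. Groups and replicates come from the labels, the sets from library totals. Named genes are the 8, Smarca5 and the 4 most abundant per pathway list with Srf, Myocd, Mkl1 and Mkl2. The 3 nearest to each of 4 members are named too. The 3 most abundant markers are named for the fibroblast and extraembryonic endoderm lists. Of the cardiac list only the most abundant, Myl7, is named by this rule, and of the ES cell list none. Col1a1, Col1a2, Col3a1, Lum, Fap, Postn and Nppa were added after their values were seen. One pathway list is not reported here. The genes, lists and tests were chosen with earlier results of these data known. The fit with 1 mean per group was tested on simulated counts for ko against wild type. The simulation held 1 spread for all genes and no difference between library sets. It therefore does not cover the within-set fit or differences between sets. No replicates were duplicates.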

Additional observations from a re-analysis of the deposited data

Results flagged for a closer look

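For 5 of the 8 contractile genes, the ko effect (log2 fold change of ko against wild type) differed between the middle and the low library set by a test of the difference itself (edgeR, Benjamini-Hochberg adjusted over all genes). Mybpc3 rose more in the middle set, by 2.45 (adjusted p = 9.71e-07). The fall of Cnn1 was deeper there by -1.41 (adjusted p = 0.00753) and that of Myl9 by -1.25 (adjusted p = 0.0131). Tagln and Tpm2 rose in the low set (1.41 and 0.62) and were not called in the middle set (0.33 and 0.22), with differences of -1.08 (adjusted p = 0.00971) and -0.40 (adjusted p = 0.0420). The difference for Tpm2 was lost on leaving out any 1 library of the 2 sets other than ko replicate 3. Such a difference was found for 26.8% of all genes, and what separates the sets was not tested. A gap test for 1 extreme library per group flagged none in the 16 combinations of gene and group, of wild type and ko, that were large enough to check. It pooled the sets, and 2 high libraries mask each other in it. It could therefore not flag the 2 levels of Mybpc3 in ko, and does not show that the groups are even.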

How the results depend on the processing

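Ko against wild type had 7 contractile genes called within the low set, with the library set as an additive factor, and without the high set (added after seeing the data), beside 4 in the fit over all libraries. Over all genes the shares called were 60.1% in the low set, 56.5% without the high set and 55.0% over all libraries. With the additive factor 9678 of 14901 genes were called. Low-set libraries alone gave 5 of the 7 genes other than Actg2 for mutant add-back against ko (all genes: 14.6%), beside 0. They gave 4 between wild-type add-back and wild type (all genes: 22.5%), beside 0. Leaving out 1 library gave 2 to 5 for the difference between sets, 2 to 4 between the add-backs and 4 to 6 between mutant add-back and wild type; a lone mutant library is then assumed to vary like the others. Other counts of this section are over all 8 genes. Actg2 entered the tests only through the mutant add-back libraries, so in counts that involve that group its call was favoured in advance.

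Changes of sign in ko against wild type were those of Elk1 (0.068, low set), Actg2 (-0.10) and Tnnt1 (-0.36, both middle set) and, with 1 library left out, Pdlim7 (-0.035 to 0.098) and Tnnt1 (-0.038 to 0.17). Low-set libraries alone turned Tpm1 (0.063) in wild-type add-back against ko, Mybpc3 (0.83) in mutant add-back against ko, Tpm2 (0.085) and Cnn1 (1.16) between wild-type add-back and wild type, and Cnn1 (0.051) between mutant add-back and wild type. Without the high set Cnn1 gave 0.30 between wild-type add-back and wild type. With 1 library left out, ranges crossed 0 for Tpm1 (wild-type add-back and wild type, -0.037 to 0.094), for Cnn1 (-0.17 to 0.39) and Tagln (-0.050 to 0.24) in ko, middle against low set, for Acta2 in the difference between sets (-0.35 to 0.039) and for Myl9 between the add-backs (-0.51 to 0.093). The cause was not tested.

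The labels do not say that a replicate number marks a shared culture, and correlations of same-numbered ko and wild-type deviations ran from -0.25 to 0.17. Between the add-backs, which share 2 numbers, they were 0.066 and 0.17. Each of these wild-type add-back libraries correlated better with the mutant library of its own number. Any positive value gives that result, because deviations of 2 libraries from their mean mirror each other. It is therefore no evidence of a pairing. With replicate number as a block, 4 genes were called for ko against wild type, 5 for the wild-type and 0 for the mutant add-back against ko, 7 between the add-backs, and 0 and 6 for the wild-type and mutant add-back when set against wild type. In the same order, 8091, 6861, 48, 5855, 1002 and 7091 of all 14901 genes were called. The block turned Tpm2 (-0.047) and Tnnt1 (-0.048) in ko against wild type, and Tpm1 (-0.27), Tagln (-0.12) and Mybpc3 (-0.12) between wild-type add-back and wild type.

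Over all genes, mutant add-back against ko had 48 calls in the main design, 337 with DESeq2, 15 with only the 2 groups fitted and 2181 within the low set. Wild-type add-back and wild type differed in 238 genes, 481 with DESeq2, 3357 within the low set and 1002 with the block. The add-backs differed in 5507 genes, 8510 with only the 2 groups fitted and 9029 within the low set. Scaling by library size alone gave 4648 higher and 3575 lower genes for ko against wild type, beside 3992 and 4197. Depth limits Actg2, which held at most 20 counts in a library.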
